A study of Mus musculus with 12 samples.

Results

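The 9 cytokine genes described here, all known from T cells, were followed in CD8+ T cells sorted from mouse tumours: Ifng, Tnf, Lta, Ltb, Il2, Il21, Il10, Csf1 and Csf2. They were chosen by symbol in the deposited gene table, which held 56980 genes, and all 9 passed the filter on low counts together with 20411 genes in all. The cells came from wild type C57BL/6J mice bearing tumours of Panc02, a mouse pancreatic cancer line, or of Panc02 that expresses Flt3L, the growth factor of dendritic cells. Sorted cells were DAPI- CD45.2+ CD8+ and were split by asialo-GM1 (asGM1), a glycolipid of the cell surface, into asGM1- and asGM1+ cells. This gave 4 groups of 3 libraries: Panc02 asGM1-, Panc02 asGM1+, Flt3L Panc02 asGM1- and Flt3L Panc02 asGM1+. The labels used here give neither the age of the mice nor whether the libraries of a group are from different animals, so the p-values speak only of the spread between these libraries, which may be technical. The sort named no T cell receptor marker, and in such bulk samples a smaller share of cells that express a gene and less RNA per cell cannot be told apart.

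T cell cytokines are short secreted or membrane proteins whose genes are switched on after antigen recognition, largely through the NFAT, AP-1 and NF-kB transcription factors. Ifng and Tnf are the classic effector cytokines of CD8+ T cells, whereas Il2, the T cell growth factor, is typical of less differentiated cells and of CD4+ T cells. Lta and Ltb belong to the Tnf family and shape lymphoid tissue, Csf1 and Csf2 act on macrophages, dendritic cells and granulocytes, Il21 is known mostly from helper T cells, and Il10 restrains inflammation.

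The promoters of the 5 cytokine genes that passed a test in at least 1 comparison below are shown first, so that their differing sequences can be set beside their differing values. Each is the 250 bases before the transcription start from RefSeq (build GRCm38.p6, an earlier build than the one named for the count table), written 5′ to 3′ on the gene's strand. Capitals mark matches to letters searched on both strands: GGG, any 2 bases, TT, any base and CC for NF-kB, GGAAAA for NFAT, TGANTCA for AP-1 and TATAAA for a TATA box. Il2 lies at chr3:37125955-37126204 (- strand), Il21 at chr3:37232637-37232886 (-), Csf1 at chr3:107760470-107760719 (-), Csf2 at chr11:54249900-54250149 (-) and Ltb at chr17:35194257-35194506 (+).
Il2: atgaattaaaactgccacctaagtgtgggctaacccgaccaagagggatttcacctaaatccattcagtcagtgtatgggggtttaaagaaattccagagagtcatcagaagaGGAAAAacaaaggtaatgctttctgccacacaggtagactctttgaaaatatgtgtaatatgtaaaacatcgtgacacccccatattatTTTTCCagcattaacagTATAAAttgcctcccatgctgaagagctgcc
Il21: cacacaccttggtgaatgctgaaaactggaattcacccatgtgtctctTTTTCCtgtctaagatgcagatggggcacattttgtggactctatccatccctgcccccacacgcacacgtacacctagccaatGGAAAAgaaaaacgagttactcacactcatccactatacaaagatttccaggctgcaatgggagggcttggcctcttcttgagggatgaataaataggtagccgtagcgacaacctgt
Csf1: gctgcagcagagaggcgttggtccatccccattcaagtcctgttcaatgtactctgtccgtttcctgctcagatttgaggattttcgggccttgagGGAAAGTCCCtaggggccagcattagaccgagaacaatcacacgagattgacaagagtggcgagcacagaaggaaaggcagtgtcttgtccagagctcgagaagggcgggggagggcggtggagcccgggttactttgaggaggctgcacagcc
Csf2: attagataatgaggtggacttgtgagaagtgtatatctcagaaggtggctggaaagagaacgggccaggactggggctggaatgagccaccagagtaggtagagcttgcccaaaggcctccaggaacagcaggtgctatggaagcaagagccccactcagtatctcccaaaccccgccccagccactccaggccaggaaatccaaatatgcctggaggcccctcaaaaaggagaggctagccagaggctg
Ltb: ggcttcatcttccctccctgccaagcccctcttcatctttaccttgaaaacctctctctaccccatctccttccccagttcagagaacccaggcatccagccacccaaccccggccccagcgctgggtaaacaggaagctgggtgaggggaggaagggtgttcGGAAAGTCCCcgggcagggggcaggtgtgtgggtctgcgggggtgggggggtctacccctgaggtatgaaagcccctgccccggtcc

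Of the 9 genes, 8 had a promoter in the RefSeq table, all but Il10. NFAT letters were in 3 of the 8 (Il2, Il21 and Tnf), against 20.4% of all 32851 promoters searched over the same 250 bases. The TATA box letters were in 4 (Il2, Ifng, Tnf and Lta) against 12.4%, the NF-kB letters in 2 (Ltb and Csf1) against 4.11%, and the AP-1 letters in 0 against 6.75%. The Il2 promoter held NFAT letters from 137 to 132 and from 48 to 43 bases before the start, and TATA box letters from 31 to 26 bases before it. Csf2 held none of the 4. A match is a description of the sequence, and a missing match says only that these letters are not in the window.

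**Figure D1:**
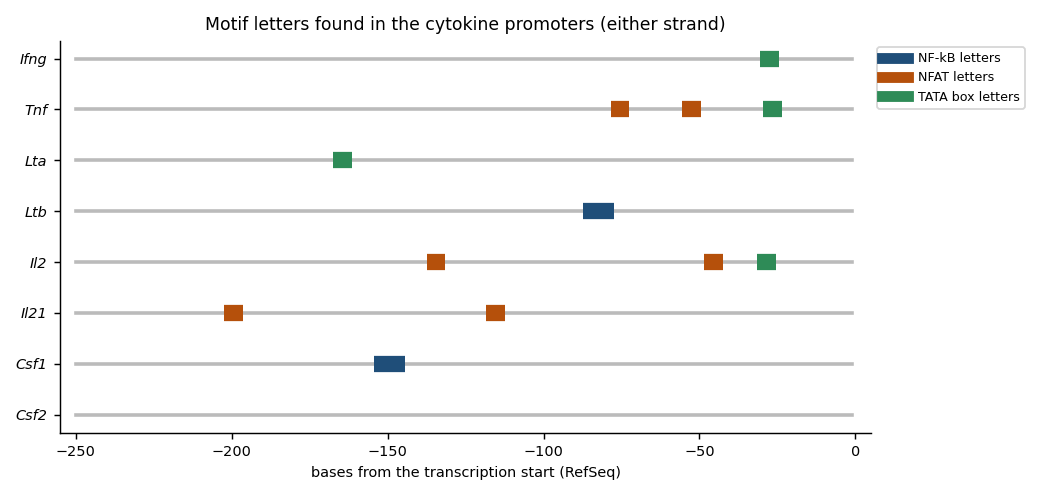
Positions of the motif letters in 8 cytokine promoters, with bases from the transcription start on the x axis and 1 gene per line; coloured bars are matches on either strand. Il2, Ifng and Tnf carry TATA box letters from 24 to 31 bases before the start, while Csf2 carries no match.

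Levels are given as CPM, counts scaled to the total of each library after that total was adjusted by its TMM factor. Set per kilobase of exon, which allows genes to be compared, Ltb had the highest mean of the 9 in every group and Ifng the next. Their libraries overlapped in Panc02 asGM1+ cells, at 415 to 500.4 CPM per kilobase for Ltb and 216 to 427 for Ifng. In Panc02 asGM1- cells the level of Ltb was 667 ± 93.9 CPM per kilobase (SD, n = 3) and that of Ifng 268 ± 98.6. Csf2 (145 ± 41.6) and Lta (91.5 ± 9.33) followed in that group, and their libraries overlapped, as did those of Ifng and Csf2. Tnf (27.8 ± 5.41) and Csf1 (22.6 ± 1.38) also overlapped. At the bottom stood Il2 (6.35 ± 1.85), Il10 (1 ± 0.398) and Il21 (0.0623 ± 0.0397). In Flt3L Panc02 asGM1+ cells Csf2 had 15 ± 5.09 CPM per kilobase and stood below Tnf (24.2 ± 1.51) and Csf1 (18.7 ± 1.96), its libraries overlapping those of Csf1. Lengths are from the GENCODE M21 exons, and the annotation behind the counts may differ.

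Near zero was Il21, which was at 0 in the 3 Panc02 asGM1+ libraries and under 1 CPM in the others too. Il10 and Il2 were low but present in every library, Il10 between 0.61 and 2.42 CPM, with 3 libraries under 1 CPM, and Il2 between 1.08 and 8.98 CPM. The other 6 genes were at 7.85 CPM or more in every library. They differed in how far they moved: the highest library exceeded the lowest 17.6-fold for Csf2 and 8.31-fold for Il2, but 1.54-fold for Tnf and 1.61-fold for Lta. Between those lay Il10 at 3.96-fold, Ifng at 3.97-fold, Csf1 at 2.67-fold and Ltb at 2.4-fold. Within a group of 3, Csf2 still differed up to 2.76-fold and Ifng up to 2.2-fold between libraries.

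**Figure D2:**
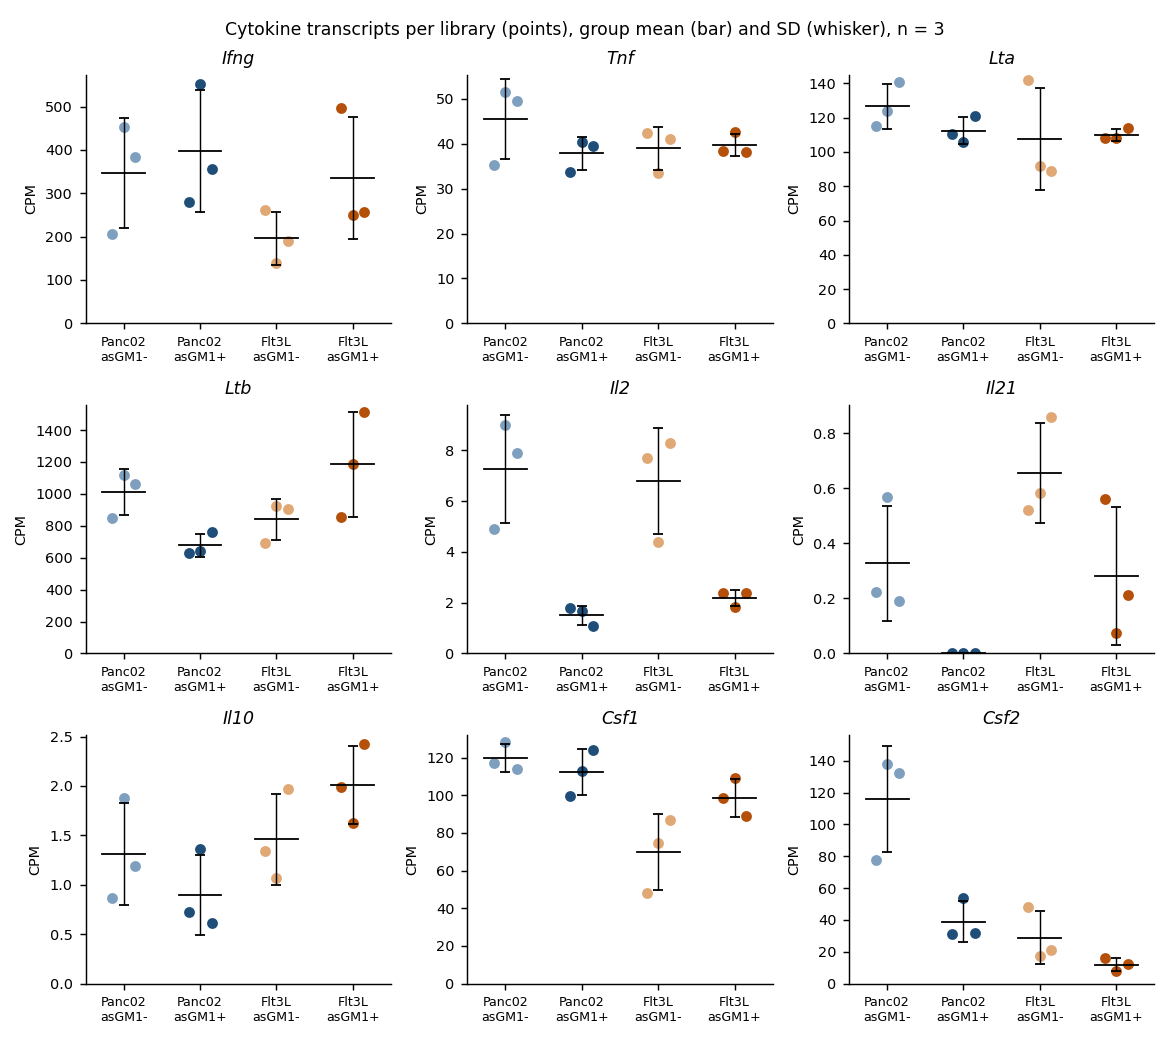
CPM of each cytokine gene (y axis, linear from 0) in the 12 libraries of the 4 groups (x axis), where points are libraries, bars are means and whiskers are SD (n = 3). Il2 lies between 1.08 and 2.37 CPM in the 6 asGM1+ libraries and between 4.38 and 8.98 CPM in the 6 asGM1- libraries, and Il21 is at 0 in the 3 Panc02 asGM1+ libraries.

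Il2 (ENSMUSG00000027720) was lower in asGM1+ than in asGM1- cells in both kinds of tumour. In Panc02 tumours it stood at 4.9, 8.98 and 7.9 CPM in asGM1- libraries 1, 2 and 3, and at 1.79, 1.66 and 1.08 CPM in asGM1+ libraries. The groups did not overlap, and the log2 fold change of -2.26 ± 0.32 (SE), 4.8-fold lower, passed edgeR's quasi-likelihood test (adjusted p = 0.00506). The asGM1- libraries of Flt3L Panc02 tumours held 7.71, 4.38 and 8.27 CPM of Il2, and asGM1+ libraries 2.37, 1.81 and 2.37 CPM. That again left no overlap, with a log2 fold change of -1.64 ± 0.31 (3.11-fold lower, edgeR adjusted p = 0.00883). Both calls were kept in each of 6 runs that left out 1 compared library and under all 11 other settings tried. Il2 was not called between tumour types, at -0.10 ± 0.30 in asGM1- cells (95% interval -0.75 to 0.56) and 0.53 ± 0.31 in asGM1+ cells (-0.14 to 1.20). The lower Il2 of asGM1+ cells moved with markers of CD4+ and regulatory T cells in Panc02 tumours, where the sum over 9 such genes (9 of 9 in the table) was 916 to 1266 CPM in asGM1- and 526 to 741 CPM in asGM1+ libraries. That sum overlapped in Flt3L Panc02 tumours, at 734 to 938 and 699 to 878 CPM. In each tumour type 4 of the 9 fell in asGM1+ cells, 0 rose and 5 were not called, against 0.892% of all genes called in Panc02 and 8.59% in Flt3L Panc02 tumours. In Flt3L Panc02 tumours Cd4 went from 28.1 ± 4.68 CPM in asGM1- to 4.77 ± 0.297 CPM in asGM1+ cells and Foxp3 from 26.6 ± 8.4 to 9.99 ± 0.941 CPM. Between tumour types in asGM1- cells Cd4 rose with Flt3L from 7.59 ± 1.33 CPM, Foxp3 fell from 61.8 ± 12.3 CPM, Il2ra fell and 6 were not called. The part of such cells in the Il2 difference was not tested.

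Il21 (ENSMUSG00000027718), which lies next to Il2 among the protein-coding genes of chromosome 3, was under 1 CPM in every library. Its 3 Panc02 asGM1+ libraries held 0 counts, and the asGM1- libraries 0.223, 0.568 and 0.192 CPM, which is 24, 57 and 19 deposited counts. A fragment was worth about 2.71 counts here, so these are about 8.86, 21 and 7.01 fragments. Against a floor of 3 fragments per library (0.0799 CPM), Il21 was at least 4.1-fold lower in asGM1+ cells (edgeR adjusted p = 0.019). The call ended without Panc02 asGM1- replicate 2 (adjusted p = 0.052), without asGM1+ replicate 2 (0.0697), in a fit to the 6 compared libraries (0.0889), and without both Panc02 libraries numbered 1 (0.0872). Without asGM1- replicate 2, which held the highest value, the bound was 2.6-fold. Cxcr5, a receptor of follicular helper T cells among the CD4+ T cell markers, moved the same way, from 4.11 ± 1.2 CPM in asGM1- to 0.737 ± 0.453 CPM in asGM1+ cells (SD, n = 3, edgeR adjusted p = 0.019). The part of such cells in the Il21 difference was not tested.

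Il21 in Flt3L Panc02 tumours stood at 0.52, 0.583 and 0.86 CPM in asGM1- libraries and at 0.56, 0.0732 and 0.211 CPM in asGM1+ libraries, groups that overlapped. Its log2 fold change was -1.21 ± 0.73 (95% interval -2.86 to 0.43, edgeR adjusted p = 0.338). Among asGM1+ cells it was at least 3.52-fold higher in Flt3L Panc02 than in Panc02 tumours (edgeR adjusted p = 0.0121), a call kept in all 6 runs without 1 library. A fit to the compared libraries alone could not test it, since Il21 did not pass the filter on low counts there. The values behind the call are few: 54, 7 and 19 counts against 0, 0 and 0. The 7 counts lie below the floor, and without Flt3L Panc02 asGM1+ replicate 1 the bound was 1.78-fold. Cxcr5 rose there too, from 0.737 ± 0.453 to 4.2 ± 1.61 CPM (SD, n = 3, edgeR adjusted p = 0.0103), and its part was not tested. The gate difference of Il21 was not called as different between tumour types (edgeR adjusted p = 0.0989), although DESeq2 called it (adjusted p = 0.00781).

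Ifng (ENSMUSG00000055170), the interferon of activated T and NK cells, was abundant and varied widely between libraries of 1 group. It stood at 206, 453 and 383 CPM in Panc02 asGM1- and at 280.1, 553 and 357 CPM in Panc02 asGM1+ libraries. In Flt3L Panc02 tumours it stood at 261, 139 and 189 CPM in asGM1- and at 497, 249.6 and 257 CPM in asGM1+ libraries. All 4 pairs of groups overlapped and edgeR called none, while limma-voom with sample quality weights, the form used throughout, called the lower Ifng of asGM1- cells with Flt3L (adjusted p = 0.0395). The log2 fold change between gates was 0.19 ± 0.37 in Panc02 (95% interval -0.61 to 0.99) and 0.77 ± 0.37 in Flt3L Panc02 tumours (-0.03 to 1.57, edgeR adjusted p = 0.216). Between tumour types it was -0.82 ± 0.37 in asGM1- cells (-1.63 to -0.02, adjusted p = 0.236) and -0.25 ± 0.37 in asGM1+ cells (-1.04 to 0.55, adjusted p = 0.735). The Panc02 gate value changed sign without Panc02 asGM1- replicate 1 (-0.08) or asGM1+ replicate 2 (-0.12), and the tumour value of asGM1+ cells without Panc02 asGM1+ replicate 2 (0.07).

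Tnf (ENSMUSG00000024401) and Lta (ENSMUSG00000024402), neighbours on chromosome 17 whose proteins share receptors, were the steadiest of the 9. Tnf lay at 35.3, 51.6 and 49.6 CPM in Panc02 asGM1-, 33.7, 40.4 and 39.5 CPM in Panc02 asGM1+, 42.5, 33.5 and 41 CPM in Flt3L Panc02 asGM1-, and 38.4, 42.6 and 38.2 CPM in Flt3L Panc02 asGM1+ libraries. Its 4 log2 fold changes ran from -0.26 ± 0.15 (gates, Panc02) to 0.07 ± 0.15 (tumour types, asGM1+ cells). Lta stood at 115, 124 and 141 CPM, 110.4, 106 and 121 CPM, 142, 91.8 and 88.7 CPM, and 108, 108 and 114 CPM in the same groups. Its log2 fold changes ran from -0.23 ± 0.16 (tumour types, asGM1- cells) to 0.04 ± 0.16 (gates, Flt3L Panc02). Groups overlapped in each of these 8 comparisons, and edgeR called none. The 95% intervals of Tnf ended at -0.60 and 0.40 and those of Lta at -0.59 and 0.39 at their widest, so larger shifts lie outside them. Lta in asGM1- cells passed between tumour types without Flt3L Panc02 asGM1- replicate 1, which held its highest value (log2 fold change -0.49, adjusted p = 0.0276), and by limma-voom (-0.45, adjusted p = 0.0155).

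Ltb (ENSMUSG00000024399), the membrane partner of Lta and the next gene to Tnf on its other side, was high in Flt3L Panc02 asGM1+ cells. It stood at 629.7, 643 and 759 CPM in Panc02 asGM1+ libraries and at 856, 1185 and 1513 CPM in Flt3L Panc02 asGM1+ libraries, with no overlap. The log2 fold change of 0.81 ± 0.20 (1.75-fold) was called (edgeR adjusted p = 0.0363). In asGM1- cells, with 849, 1118 and 1065 CPM in Panc02 and 692, 925 and 903 CPM in Flt3L Panc02 libraries, it was -0.27 ± 0.19 and not called. Between gates Ltb went in opposite directions in these libraries without being called: -0.58 ± 0.19 in Panc02 tumours, where the groups did not overlap (edgeR adjusted p = 0.296), against 0.50 ± 0.19 with Flt3L, where they did (adjusted p = 0.14). The difference of these gate effects was 1.07 ± 0.28 (95% interval 0.47 to 1.68). In the Panc02 gate limma-voom called Ltb (-0.68, adjusted p = 0.0201), and in the Flt3L Panc02 gate it passed by edgeR without asGM1+ replicate 1 (0.69, adjusted p = 0.0464). The difference of the gate effects missed the threshold by edgeR (adjusted p = 0.121) and passed it by DESeq2 (0.0114) and limma-voom (0.0297).

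The call of Ltb between tumour types ended without Panc02 asGM1+ replicate 1 (adjusted p = 0.13) or 2 (0.128), without Flt3L Panc02 asGM1+ replicate 2 (0.0987) or 3 (0.121), and without both Panc02 libraries numbered 1 (0.125). It also ended with no filter on low counts (0.0596) and in a fit to the 6 compared libraries (0.0811). T cell identity genes moved with it: of 13, 5 rose in Flt3L Panc02 asGM1+ cells, 0 fell and 8 were not called, against 6.25% of all genes called. Their median log2 fold change was 0.63, against -0.03 over all genes. Summed, they stood at 12057 to 14308 CPM in Panc02 asGM1+ and 16052 to 21768 CPM in Flt3L Panc02 asGM1+ libraries. Their part in the Ltb difference was not tested.

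Csf2 (ENSMUSG00000018916), which encodes GM-CSF, a growth and activation factor of myeloid cells, had the widest range over libraries among the 8 of the 9 genes that every library held, and was highest in Panc02 asGM1- cells. Those libraries held 77.8, 138 and 132 CPM, against 48.2, 17.5 and 21.1 CPM in Flt3L Panc02 asGM1- libraries. The log2 fold change between tumour types was -2.00 ± 0.41 (4.01-fold lower with Flt3L, edgeR adjusted p = 0.0251). In asGM1+ cells Csf2 fell from 31.1, 53.9 and 32 CPM in Panc02 to 16, 7.85 and 12.2 CPM in Flt3L Panc02 libraries, a log2 fold change of -1.70 ± 0.41 (3.24-fold lower, adjusted p = 0.0349). Neither pair of groups overlapped. The groups of the 2 gates did not overlap either, with asGM1+ cells lower by a log2 fold change of -1.57 ± 0.40 in Panc02 (95% interval -2.45 to -0.69) and -1.27 ± 0.40 in Flt3L Panc02 tumours (-2.14 to -0.39). These gate differences were not called by edgeR (adjusted p = 0.122 and 0.0754) and were called by DESeq2 (0.00265 and 0.011). Limma-voom called the Panc02 difference (0.00942) and not the other (0.107), and edgeR with a filter at 5 CPM called that of Flt3L Panc02 tumours (0.0455). The comparisons share libraries, so their values are not independent of each other.

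The calls of Csf2 rested on few libraries. In asGM1- cells the call ended without Panc02 asGM1- replicate 2 (adjusted p = 0.0975) or 3 (0.0779) and without Flt3L Panc02 asGM1- replicate 2 (0.111) or 3 (0.0892). In asGM1+ cells it ended without Panc02 asGM1+ replicate 1 (0.0653) or 2 (0.128), without Flt3L Panc02 asGM1+ replicate 2 (0.121) or 3 (0.118), without both Panc02 libraries numbered 1 (0.059), with no filter (0.0637) and in a fit to the compared libraries (0.0543). Over all runs that left out 1 compared library, with the call kept or not, the log2 fold change stayed between -2.59 and -1.74 in asGM1- and between -1.96 and -1.39 in asGM1+ cells. Il3, the next protein-coding gene to Csf2 on chromosome 11, was near the low end, at 3.01 ± 1.84 CPM in Panc02 asGM1- and 0.99 ± 1 CPM in Flt3L Panc02 asGM1+ cells.

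Csf1 (ENSMUSG00000014599), the growth factor of macrophages, was lower with Flt3L in asGM1- cells. It stood at 117, 128 and 114 CPM in Panc02 and at 47.9, 74.9 and 86.9 CPM in Flt3L Panc02 asGM1- libraries, with no overlap. The log2 fold change was -0.78 ± 0.18 (1.71-fold lower, edgeR adjusted p = 0.0423). In asGM1+ cells, at 99.6, 113 and 124 CPM in Panc02 and 98.5, 109 and 88.8 CPM in Flt3L Panc02 libraries, the groups overlapped and the log2 fold change was -0.18 ± 0.18. Between gates it was -0.09 ± 0.18 in Panc02 and 0.50 ± 0.18 in Flt3L Panc02 tumours, where the groups did not overlap but edgeR did not call it (adjusted p = 0.114). The call in asGM1- cells ended without Panc02 asGM1- replicate 1 (0.0878), 2 (0.145) or 3 (0.101), without Flt3L Panc02 asGM1- replicate 2 (0.123), without both Panc02 libraries numbered 1 (0.0868), with no filter (0.0716) and in a fit to the compared libraries (0.0791).

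Csf1 is also made by fibroblasts and epithelial cells. Of 8 fibroblast genes 2 fell with Flt3L in asGM1- cells (Dcn and Lum), 0 rose and 6 were not called, against 3.7% of all genes called. The sum over the 8 was 35.7 to 83.3 CPM in Panc02 and 9.08 to 58.3 CPM in Flt3L Panc02 libraries. Of 6 epithelial genes tested, Krt8 and Krt18 fell and Epcam rose, with sums of 69.3 to 115 CPM and 55.4 to 91.9 CPM over 8 genes. Both sums overlapped between these groups. Dcn went from 16.5 ± 6.84 to 2.39 ± 1.66 CPM (-2.78 ± 0.65) and Lum from 6.3 ± 2.89 to 0.603 ± 0.466 CPM (-3.38 ± 0.81), with a median log2 fold change of -0.59 over the list, while Col1a1 stood at 3.49 ± 1.59 and 6.92 ± 5.51 CPM and was not called. The part of such cells in the Csf1 difference was not tested.

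Il10 (ENSMUSG00000016529), the gene of an inhibitory cytokine, was low in every group and was not called anywhere by edgeR. It stood at 0.863, 1.88 and 1.19 CPM in Panc02 asGM1-, 0.73, 1.36 and 0.61 CPM in Panc02 asGM1+, 1.34, 1.07 and 1.97 CPM in Flt3L Panc02 asGM1-, and 1.99, 1.63 and 2.42 CPM in Flt3L Panc02 asGM1+ libraries. Among asGM1+ cells the tumour types did not overlap, with a log2 fold change of 1.16 ± 0.39 (95% interval 0.31 to 2.01, edgeR adjusted p = 0.0961, DESeq2 adjusted p = 0.0372). Its libraries rest on 61 to 218 deposited counts, or about 22.5 to 80.4 fragments.

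**Figure D3:**
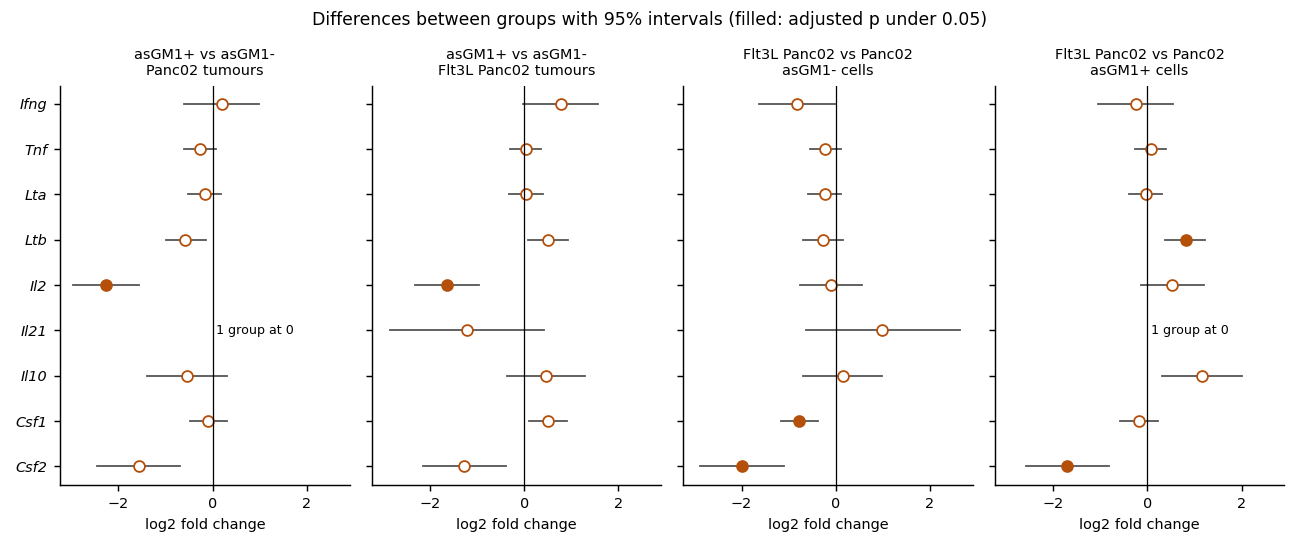
Log2 fold changes of the 9 genes (points) with 95% intervals (lines) in the 4 comparisons of groups, where filled points passed edgeR's test at an adjusted p under 0.05. Il2 is lower in asGM1+ cells of both tumour types and Csf2 is lower with Flt3L in both gates; Il21 is not drawn where 1 group held 0 counts.

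Counted over the 9 genes, calls were few. Between gates in Panc02 tumours 2 fell (Il2 and Il21), 0 rose and 7 were not called, while 0.892% of all genes tested were called (0.843% lower, 0.049% higher). The median log2 fold change was -0.54, against 0.02 over all genes. In Flt3L Panc02 tumours 1 fell (Il2), 0 rose and 8 were not called, against 8.59% of all genes (5.83% lower, 2.77% higher), with a median of 0.04 against -0.01. A share of 1 in 9 is near that background. Between tumour types 2 fell in asGM1- cells (Csf2 and Csf1) and 7 were not called, against 3.7% of all genes (1.84% lower, 1.86% higher), with a median of -0.23 against 0. In asGM1+ cells 2 rose (Il21 and Ltb), 1 fell (Csf2) and 6 were not called, against 6.25% of all genes (4.2% lower, 2.05% higher), with a median of 0.07 against -0.03.

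Groups that did not overlap were seen for 4 of 9 between gates in Panc02 tumours, against 17.6% of all genes, and for 3 of 9 in Flt3L Panc02 tumours, against 28.7%. Between tumour types they were seen for 2 of 9 in asGM1- cells, against 26.6%, and for 5 of 9 in asGM1+ cells, against 30.7%. The test of the difference between gate effects called 0 of the 9 by edgeR, against 0.367% of all genes (0.333% lower, 0.0343% higher). At an unadjusted p under 0.05 there were 3 (Il21, Ltb and Csf1), against 3030 of 20411 genes. DESeq2 called 2 (Il21 and Ltb), against 864 of 20370 genes, and limma-voom 1 (Ltb), against 786 of 20411 genes.

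**Figure D4:**
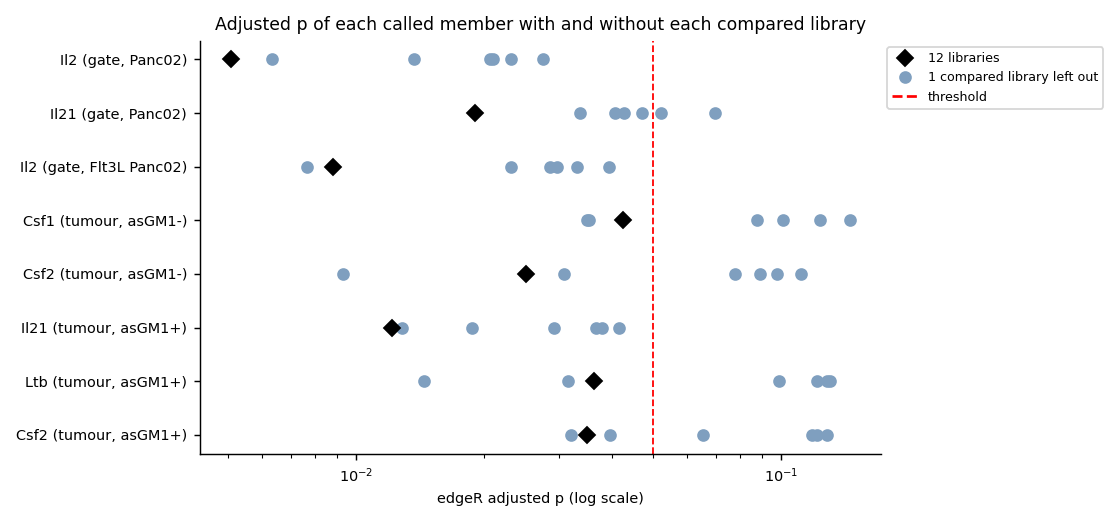
Adjusted p by edgeR (x axis, log scale) of each of the 8 calls, with all 12 libraries (diamonds) and with each compared library left out in turn (circles); the dashed line is the threshold. The circles of Il2 stay under 0.05 in both tumour types, and 4 of the 6 circles of Csf1, Ltb and both Csf2 calls lie above it.

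Other cytokine genes were taken from a list of 19, of which 16 could be tested. Between gates in Panc02 tumours 4 fell in asGM1+ cells, 0 rose and 12 were not called, with a median log2 fold change of -0.93, against 0.892% of all genes called. The 4 were the Tnf family members Tnfsf8 (CD30 ligand, -1.78 ± 0.20), Tnfsf11 (RANKL, -0.90 ± 0.12), Cd40lg (CD40 ligand, -1.20 ± 0.22) and Tnfsf14 (LIGHT, -0.97 ± 0.19), with edgeR adjusted p-values from 0.0013 to 0.0416. In Flt3L Panc02 tumours 5 fell, 0 rose and 11 were not called, with a median of -0.69, against 8.59% of all genes called. Among those that fell were Tnfsf8 (-1.54 ± 0.20), Tnfsf11 (-0.89 ± 0.12), Cd40lg (-1.08 ± 0.21) and Lif (-3.12 ± 0.59). Cd40lg is also a gene of CD4+ T cells.

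Tnfsf11 fell with Flt3L in both gates, from 65.1 ± 6.27 to 35.6 ± 2.59 CPM in asGM1- and from 35 ± 3.04 to 19.2 ± 2.09 CPM in asGM1+ cells (edgeR adjusted p = 0.00622 and 0.00579). It was the 1 of 16 called in asGM1- cells, against 3.7% of all genes called. In asGM1+ cells Il16, Cd40lg and Tnfsf8 rose, Tnfsf11 fell and 12 were not called, against 6.25% of all genes called. Il9 and Il24 were at 0 in all 12 libraries, and Il4, Il5 and Il13 stayed at or under 0.399 CPM. Il17a and Il22 reached 2 and 0.779 CPM in Flt3L Panc02 asGM1- cells and no more than 0.0863 and 0 CPM in asGM1+ cells.

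Of 15 receptor chains listed for the 9 cytokines, with the Il3 receptor chain Csf2rb2 among them, 0 were called by edgeR between gates in Panc02 tumours (5 at an unadjusted p under 0.05, 1 by DESeq2, 2 by limma-voom). Over all genes edgeR called 0.892% there, DESeq2 589 genes and limma-voom 831, and 2040 of 20411 had an unadjusted p under 0.05. In Flt3L Panc02 tumours 1 chain rose, 3 fell and 11 were not called, against 8.59% of all genes called. Il2rb, the beta chain through which T cells sense Il2, rose from 1772 ± 415 CPM in asGM1- to 3109 ± 309 CPM in asGM1+ cells (0.81 ± 0.19, adjusted p = 0.021). Csf2rb2 (-4.61 ± 0.51), a chain of the Il3 receptor, and Csf2rb (-3.18 ± 0.38), a chain of the receptors for Csf2 and Il3, fell, as did Ifngr2 (-1.47 ± 0.36). Both Csf2rb genes are near-identical copies whose counts may be split, and both are genes of myeloid and plasmacytoid dendritic cells. Of 12 genes of the latter 8 fell there, 0 rose and 4 were not called, and Siglech went from 268 ± 19.2 to 2.83 ± 1.54 CPM. The sum over 14 macrophage and monocyte genes went the other way, from 385 to 620.2 CPM in asGM1- to 691 to 946 CPM in asGM1+ libraries. Of these 14 genes 1 fell (Cd68), 0 rose and 13 were not called. The part of such cells in the Csf2rb and Csf2rb2 differences was not tested. Between tumour types Il2ra, the high-affinity chain for Il2, fell in asGM1- cells from 114 ± 13.1 to 58.2 ± 6.45 CPM (-0.97 ± 0.18, adjusted p = 0.0159). Foxp3, the factor of regulatory T cells, which carry much Il2ra, fell with it (-1.22 ± 0.29), and its part was not tested. Csf2rb2 (2.03 ± 0.45) and Csf2rb (1.48 ± 0.35) rose there, and 12 chains were not called, against 3.7% of all genes called. In asGM1+ cells Il10rb rose with Flt3L (0.46 ± 0.11), Ltbr (-1.67 ± 0.29) and Csf1r (-1.69 ± 0.44) fell, and 12 were not called, against 6.25% of all genes called. Csf1r is also a macrophage marker.

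Factors known to act on cytokine genes were taken from a list of 26, of which 0 were called by edgeR between gates in Panc02 tumours (7 had an unadjusted p under 0.05, DESeq2 called 4 and limma-voom 6), against 0.892% of all genes called by edgeR. With Flt3L the gates differed in 3: Tbx21 (T-bet, an activator of Ifng, 0.78 ± 0.13) and Ikzf3 (0.64 ± 0.14) rose and Maf (-1.81 ± 0.25) fell in asGM1+ cells, and 23 were not called, against 8.59% of all genes called. In asGM1- cells Nfkb2 fell with Flt3L (-0.85 ± 0.12) and Ikzf1, a repressor of Il2, rose (0.70 ± 0.12), with 24 not called, against 3.7% of all genes called. In asGM1+ cells 4 rose with Flt3L (Ikzf3, Junb, Tbx21 and Nfatc1), 0 fell and 22 were not called, against 6.25% of all genes called. Junb, a subunit of AP-1, went from 895 ± 194 to 1803 ± 293 CPM.

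Among 12 regulators of cytokine mRNA decay, 0 were called by edgeR between gates in Panc02 tumours (1 at an unadjusted p under 0.05, 1 by DESeq2, 1 by limma-voom), against 0.892% of all genes called by edgeR and 2040 of 20411 at an unadjusted p under 0.05. In Flt3L Panc02 tumours 3 of the 12 fell and 9 were not called, against 8.59% of all genes called. Zfp36l1, which binds AU-rich elements, rose with Flt3L in asGM1- cells, from 61 ± 2.08 to 116 ± 20.4 CPM (0.93 ± 0.16, adjusted p = 0.0127), and Zfp36 from 64 ± 1.04 to 104 ± 18.6 CPM (0.70 ± 0.16, adjusted p = 0.0377), with 10 not called, against 3.7% of all genes called. In asGM1+ cells Zc3h12d and Zfp36l1 rose and 10 were not called, against 6.25% of all genes called. Of 20 genes that interferon gamma induces, 0 were called by edgeR between gates in Panc02 tumours (7 at an unadjusted p under 0.05, 3 by DESeq2, 5 by limma-voom) or between tumour types in asGM1- cells (2, 1 and 1), against 0.892% and 3.7% of all genes called by edgeR. Within Flt3L Panc02 tumours Gbp6, Igtp, Iigp1 and Irgm1 fell in asGM1+ cells and 16 were not called, against 8.59% of all genes called, while Ifng itself was not called there. Between tumour types in asGM1+ cells Iigp1 and Gbp3 fell with Flt3L, 0 rose and 18 were not called, against 6.25% of all genes called. Type I interferons induce many of the 20 genes too.

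Transcripts of other cell types were present in each group. T cell genes were abundant, with 12057 CPM or more over 13 genes in every library. Of 12 plasmacytoid dendritic cell genes (12 of 12 in the table), 8 fell in asGM1+ cells, 0 rose and 4 were not called in each tumour type. Of all genes, 0.892% were called between gates in Panc02 and 8.59% in Flt3L Panc02 tumours. The median log2 fold changes of the 12 were -4.53 and -5.77, and Siglech went from 51.2 ± 16.5 to 1.65 ± 1.51 CPM in Panc02 tumours. Their sum moved less, at 949.8 to 1027 CPM in Panc02 asGM1- and 675 to 794 CPM in Panc02 asGM1+ libraries, and at 1625 to 1763 CPM and 740.5 to 854 CPM in Flt3L Panc02 tumours. Genes of gamma delta and type 17 T cells (11 of 11), which can also make Csf2 and Il21, summed to 111 to 139 CPM, 134 to 156 CPM, 174 to 291 CPM and 106 to 126 CPM in the same order. In asGM1- cells 3 of the 11 rose with Flt3L (Trgc1, Trgc4 and Trgc2), 0 fell and 8 were not called, against 3.7% of all genes called. The part of such cells in the Csf2 difference was not tested. Between gates 5 of these 11 genes fell in asGM1+ cells of Panc02 tumours and 7 in Flt3L Panc02 tumours. In both tumour types 0 rose, with 6 and 4 not called, although the sums overlapped between the Panc02 gates. Macrophage genes (14 of 14) summed to 784 to 1295 CPM, 901 to 3287 CPM, 385 to 620.2 CPM and 691 to 946 CPM, highest in Panc02 asGM1+ replicate 1. NK cell genes (8 of 8), several of which CD8+ T cells also express, summed to 520 to 828 CPM, 681 to 1002 CPM, 419.5 to 548 CPM and 729.7 to 1012 CPM. They did not overlap between the gates of Flt3L Panc02 tumours, where Klrk1 (0.88 ± 0.18) and Klre1 (1.08 ± 0.23) rose in asGM1+ cells, while Ncr1, an NK cell receptor, was at or under 1.25 CPM in every library. Apart from the values given, the part of these cells in the cytokine differences was not tested.

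**Figure D5:**
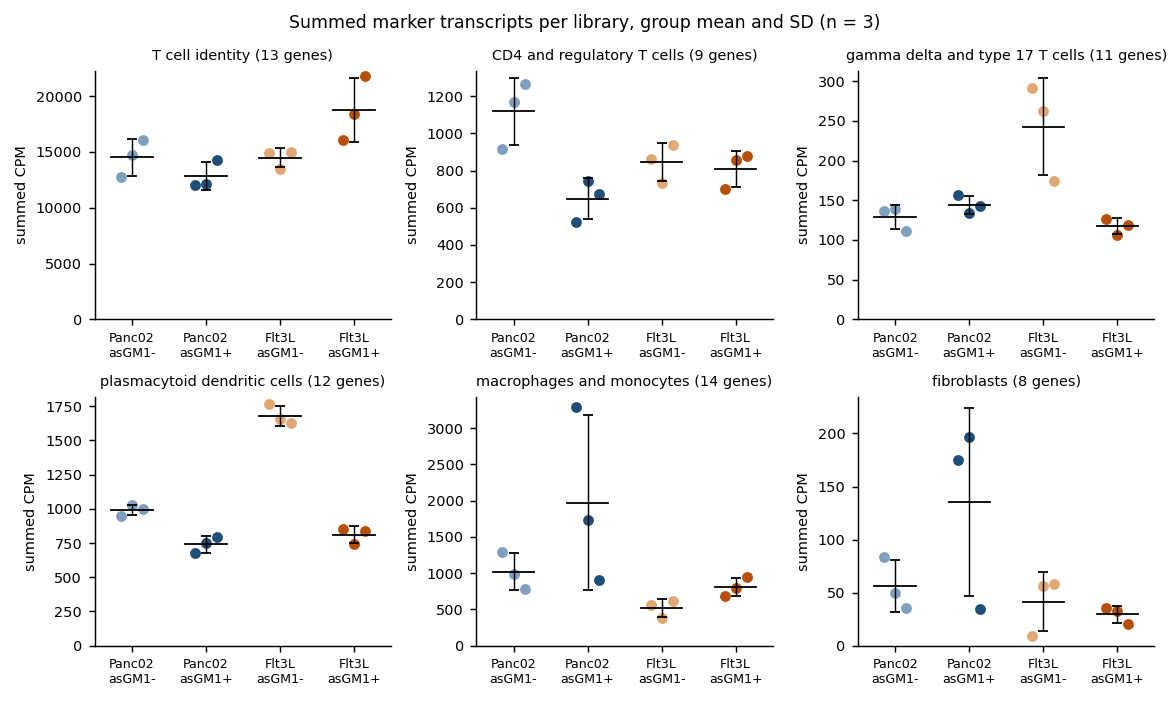
Summed CPM of 6 marker lists (y axis, linear from 0) in each library of the 4 groups, with mean and SD (n = 3). CD4 and regulatory T cell genes are lower in Panc02 asGM1+ than in Panc02 asGM1- libraries, and plasmacytoid dendritic cell genes are highest in Flt3L Panc02 asGM1- libraries, at 1625 to 1763 CPM.

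The genes most like each cytokine gene over the 12 libraries were found by the root mean square difference of log2(CPM + 1) after centring, among 9701 genes with at least 5 CPM. For Ifng they were Prf1 (perforin, 0.163), Ccl3 (a chemokine of activated T cells, 0.207) and Bnip3 (0.221), while Ifng itself varied by 0.574 about its mean. Csf2 had no gene as near: Bace2 (0.418), Cd70 (0.443) and Ebi3 (0.444) came first, with a spread of 1.23 for Csf2. Nearest to Ltb were Orai1 (the calcium channel of T cell activation, 0.157), Coq8b (0.165) and Il3ra (0.165), with a spread of 0.364. For Csf1 they were Nedd1 (0.121), Kif18a (0.152) and Calr (0.154), for Tnf Cmas, Samsn1 and Mdfic (0.0881 to 0.103), and for Lta Snupn, Tagln2 and Tssc4 (0.0702 to 0.0984). Tnf and Lta vary little (0.181 and 0.196), so that many steady genes lie close to them, while Csf1 had a spread of 0.372. Il2, Il21 and Il10 were under 5 CPM on average and were not compared.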

How the data were processed

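Bulk RNA was sequenced from 12 libraries of sorted CD8+ cells in 4 groups of 3, grouped by their labels. The deposited table holds estimated counts per gene, made by the authors with HISAT2, StringTie and build mm39, per the submitters' processing notes in versions that are not stated. The values are whole numbers, so rounding changed none. Low values fell in steps of about 2.71 counts (2.67 to 2.75 described them equally well), taken here as 1 fragment. Library totals ran from 98663008 to 102896605 counts, which overstate the number of fragments.

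Library sizes were scaled by TMM, and 20411 genes that passed edgeR's filter were tested by edgeR 4.0.16 (quasi-likelihood, 12 libraries, 4 group means) with Benjamini-Hochberg adjustment over all of them; a call is an adjusted p under 0.05. Comparisons were asGM1+ against asGM1- in each tumour type, Flt3L Panc02 against Panc02 in each gate, and the difference of the gate effects. The fit was tested on counts simulated for the gates in Panc02 tumours and for the tumour types in asGM1- cells. It recovered 2.99% of 1.5-fold changes in both, 35.8% and 19.4% of 2-fold changes, and 59.1% and 60.6% of 4-fold changes. Of its calls 4.41% and 1.79% were false. A gene that was not called may therefore still differ. Alternatives were other scalings and filters, DESeq2 1.42.0, limma-voom with sample quality weights (limma 3.58.1), fits to the compared libraries, a replicate block and leaving out libraries. The 9 genes and all lists were chosen with earlier results of these data known. Genes named from a list were up to 4 called per comparison with the lowest p, with defining markers of other cell types, and genes named at 0 or for their level were chosen after their values were seen. The labels name both a TruSeq and a SMARTer kit, and strand is not given, so overlapping genes cannot be told apart.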

Additional observations from a re-analysis of the deposited data

How the results depend on the processing

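Calls among the 9 genes were few and moved with the setting. Between gates in Panc02 tumours edgeR called 2, against 1 of 7 tested with a filter at 5 CPM in 3 libraries, which drops Il21 and Il10, 1 in a fit to the compared libraries, 1 without both Panc02 libraries numbered 1 and 4 by limma-voom with sample quality weights (a change of test and weights together). In Flt3L Panc02 tumours it called 1, against 2 of 7 with the 5 CPM filter and 2 by DESeq2. Between tumour types in asGM1- cells it called 2, against 1 with no filter, 1 in the fit to compared libraries, 1 without the libraries numbered 1 and 4 by limma-voom. In asGM1+ cells it called 3, against 1 with no filter, 0 of 8 tested in the fit to compared libraries and 1 without the libraries numbered 1. Il21 did not pass the filter of that fit to compared libraries. For the difference of gate effects it called 0, against 2 by DESeq2 and 1 by limma-voom.

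Over all genes, 182 calls between gates in Panc02 tumours became 589 by DESeq2, 831 by limma-voom, 118 in the fit to compared libraries and 107 without the libraries numbered 1. The 1754 calls in Flt3L Panc02 tumours became 3215, 2805 and 1094 by the first 3 of these. The 756 calls between tumour types in asGM1- cells became 390 with no filter, 2216 by DESeq2, 3536 by limma-voom and 481 without the libraries numbered 1. The 1276 calls in asGM1+ cells became 691, 2984, 3120 and 402 under the same settings and 1 in the fit to compared libraries. The 75 calls for the difference became 40, 864, 786 and 27, and 137 with the 5 CPM filter. The cause was not tested.

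Leaving out 1 library gave 1 to 2, 1 to 2, 0 to 3, 1 to 3 and 0 to 0 calls among the 9 genes in the 5 tests, and 94 to 226, 768 to 1942, 94 to 959, 215 to 1737 and 1 to 257 over all genes. The lowest came without Panc02 asGM1+ replicate 2 (94), Flt3L Panc02 asGM1- replicate 2 (768), Panc02 asGM1- replicate 2 (94), Flt3L Panc02 asGM1+ replicate 2 (215) and, for the difference, Panc02 asGM1- replicate 2 or Flt3L Panc02 asGM1- replicate 1 (1 each). Each such fit pooled the spread over all groups.

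Same-numbered libraries deviated together in Panc02 gates (correlations of 0.0952 to 0.284) but less in Flt3L Panc02 gates (0.0224 to 0.104), so the numbers were not taken as pairs, although each library of a gate correlated best with its own number in 3 of 3 cases in both tumour types. With the replicate block, calls among the 9 genes were 1, 2 and 1 for the 2 gates and their difference, and 135 genes were called for the difference. The block ended the call of Il21 in the Panc02 gate (adjusted p = 0.0556) and Ltb passed in the Flt3L Panc02 gate (0.046) and for the difference (0.0379). With a replicate block for each tumour type, chosen after seeing the data, 4 were called in the Flt3L Panc02 gate and 1 for the difference, with 204 over all genes; Csf2 then passed in both gates (0.0115 and 0.0108), Ifng (0.0153) and Ltb (0.0424) in the Flt3L Panc02 gate and Ltb for the difference (0.0369), and Il21 did not in the Panc02 gate (0.0672).

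The sign of some values that were not called changed. Between gates in Flt3L Panc02 tumours Tnf was at 0.00 with upper quartile scaling and -0.04 with the 5 CPM filter, and Lta at -0.03 with that filter. Without the libraries numbered 1, Il10 was at -0.08 between tumour types in asGM1- cells and Tnf at -0.01 in asGM1+ cells. Leaving out 1 library gave ranges of -0.12 to 0.43 for Ifng (gates, Panc02), -0.07 to 0.09 for Tnf and -0.08 to 0.29 for Lta (gates, Flt3L Panc02), -0.13 to 0.50 for Il10 and -0.32 to 0.14 for Il2 (tumour types, asGM1-), and -0.01 to 0.12 for Tnf, -0.65 to 0.07 for Ifng and -0.07 to 0.04 for Lta (tumour types, asGM1+). Depth limits Il21 most, since its libraries hold few fragments.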
